A study of Mus musculus with 12 samples.

Results

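The genes described here were the ligand *Igf1*, its receptor *Igf1r* and 7 genes of IGF binding proteins or their relatives, namely *Igfbp2*, *Igfbp3*, *Igfbp4*, *Igfbp5*, *Igfbp6*, *Igfbp7* and *Igfbpl1*. They were chosen by symbol, 9 of the 55304 genes in the table, and all 9 passed the filter on low values. RNA-seq had been run on cells sorted by fluorescence from the anterior pituitary of young adult male *Pomc*-eGFP mice, in which the *Pomc* promoter drives a green fluorescent protein, so that the sort follows the activity of that promoter. Every group carried this transgene. Control mice drank plain water. The DEX group drank water with dexamethasone, a synthetic glucocorticoid, at 2.5 microg/ml for 4 weeks and was collected at its end, on day 0 of recovery. Mice of the 1 week and 4 weeks recovery groups had the same treatment and were collected 7 and 28 days after it stopped. Each group had 3 libraries, each from a pool of mice that shared a cage, and the series describes pools of 3 pituitaries, so that the replicates are pools and not mice.

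IGF1 is a circulating and local growth factor that acts through a receptor tyrosine kinase. Growth hormone from pituitary somatotrophs drives its release by the liver, and IGF1 in turn restrains growth hormone secretion. The classical IGF binding proteins hold IGFs in plasma and tissue, lengthen their life and either block or aid access to the receptor, whereas IGFBP7 and IGFBPL1 share the family's N-terminal domain but bind IGFs weakly or in other ways.

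The N-terminal domain carries a run of cysteines that most of the family shares. Its coding bases are shown because the first codon tells the 4 classical binding proteins that held the run here apart from *Igfbp7* and *Igfbpl1*. The run was searched in GENCODE M21 transcripts on GRCm38. The pattern was any codon, a cysteine codon, any codon, adjacent cysteine and cysteine codons, any pair of codons, and a last cysteine codon. It lay once, within 1 exon, in 6 of the 9 genes, and capitals mark the cysteine codons. Each match had a glycine codon just before the adjacent cysteine codons, which the search did not require.
Igfbp2: ggcTGCggcTGCTGCtccgtgTGC
Igfbp3: ggcTGCggcTGCTGCctgactTGC
Igfbp4: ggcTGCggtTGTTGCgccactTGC
Igfbp5: ggcTGTggcTGCTGCatgactTGC
Igfbp7: gcgTGCgggTGCTGCccggtgTGT
Igfbpl1: gagTGCggcTGCTGCgcgcgcTGC
These bases lie at chr1:72824778-72824801 on the plus strand for *Igfbp2*, at chr11:7213566-7213589 on the minus strand for *Igfbp3* and at chr11:99041650-99041673 on the plus strand for *Igfbp4*. Those of *Igfbp5* lie at chr1:72873966-72873989, those of *Igfbp7* at chr5:77407826-77407849 and those of *Igfbpl1* at chr4:45826611-45826634, each on the minus strand. The 4 classical binding proteins in this list open with the glycine codon ggc, whereas *Igfbp7* opens with gcg and *Igfbpl1* with gag. *Igfbp6* held no match to these letters, nor did *Igf1* or *Igf1r*.

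The libraries held 7719894 to 12848078 reads on genes, and 1 read was worth 0.0787 to 0.127 normalised counts, the deposited unit. All 5 corticotroph markers (*Pomc*, *Crhr1*, *Avpr1b*, *Tbx19* and *Pcsk1*) were detected in every library. RNA of other pituitary cells was present too, since *Gh* took 8.20% to 22.9% and *Prl* 3.498% to 10.3% of reads. *Pomc* took 0.454% to 19.997% of reads, with 0.454% to 0.997% in the DEX pools and 3.801% to 8.248% in the control pools. The *Gh* share was larger than the *Pomc* share in every pool except 1 week pools 1 and 2. In cells pooled in this way, fewer cells of a type and less RNA per cell cannot be told apart. Control pool 3 and 1 week pool 3 stood apart from the other pools of their groups for several of the genes below, and they also held the most endothelial marker signal of their groups, so the values that they move are also given without them, a choice made after seeing the data. As they were picked partly on values of these genes, p-values, counts and overlaps without them are a description and not independent support.

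Across the 4 groups, 1 of the 9 genes passed the F test, *Igfbpl1*, where 0.315% of all 24736 genes tested passed. This used limma on log2(value + 0.1), with an adjusted p under 0.05. At an unadjusted p under 0.05 the F test took 6 of the 9 genes and 9.21% of all genes. edgeR's quasi-likelihood test took 0 of the 9 and 0.639% of all genes, edgeR's likelihood ratio test 5 and 4.17%, and DESeq2 2 and 3.68%. Without control pool 3 and 1 week pool 3, limma took 3 of the 9 and 1.11% of all genes, namely *Igfbp3* (adjusted p = 0.00709), *Igfbp7* (adjusted p = 0.0346) and *Igfbpl1* (adjusted p = 0.0486).

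**Figure D1:**
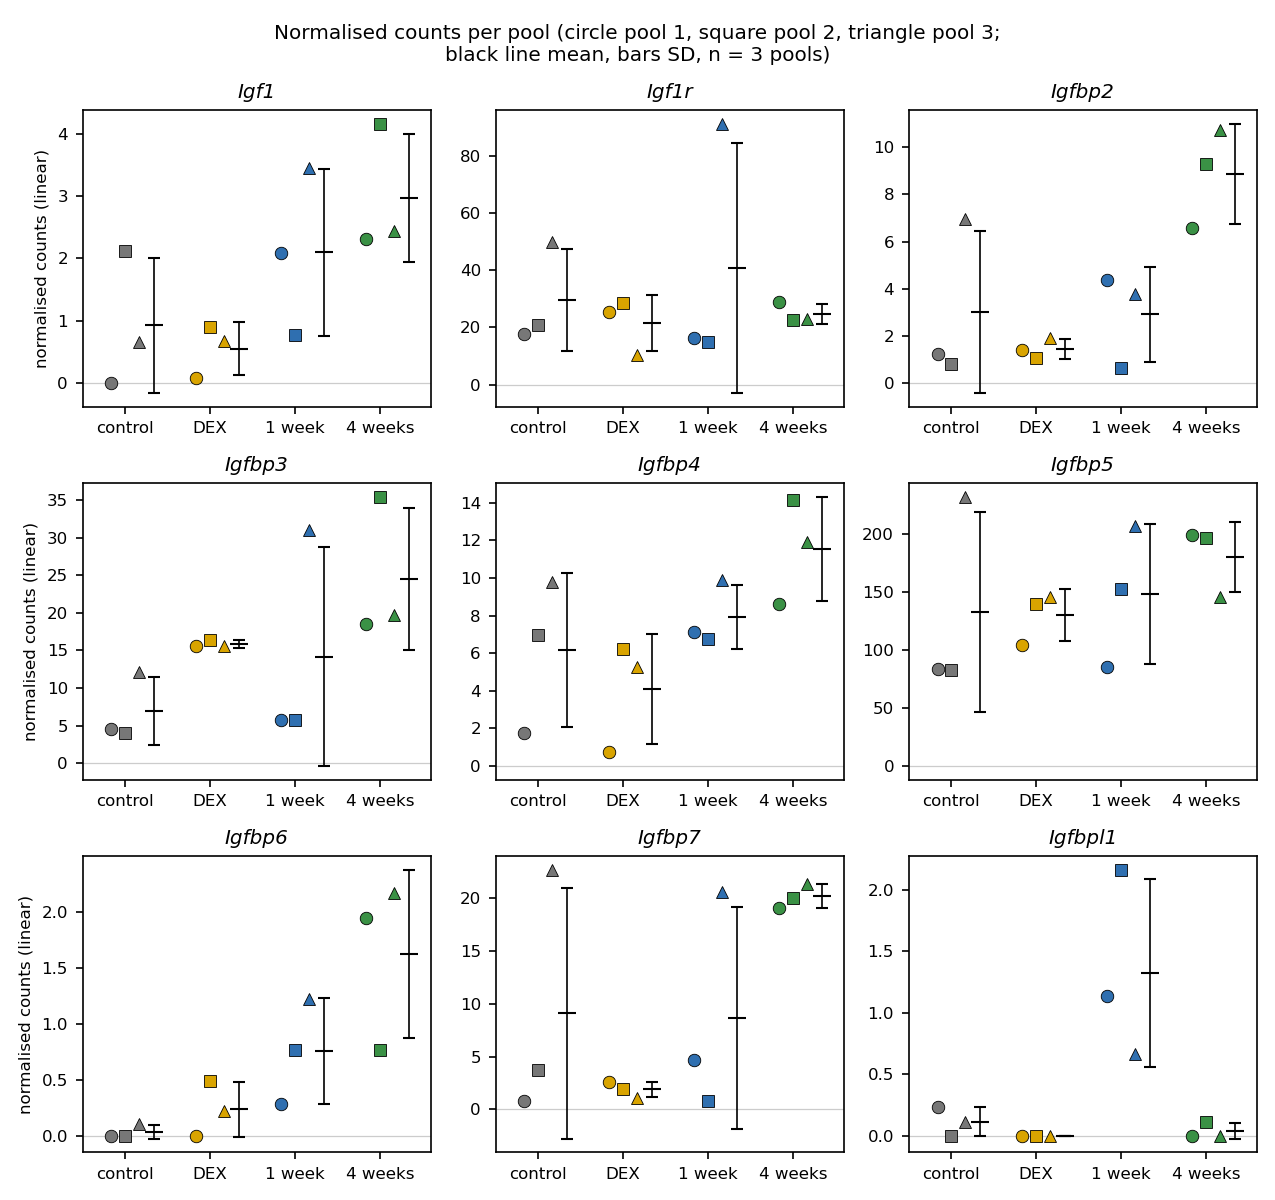
Normalised counts (linear axis) of the 9 genes in each of the 12 pools, by group, with the mean and SD of 3 pools beside the points. *Igfbpl1* stands high in the 1 week pools alone, the 4 weeks pools of *Igfbp2* and *Igfbp7* lie above all DEX pools, and control pool 3 and 1 week pool 3 (triangles) are often the highest of their groups.

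The ligand *Igf1* (chr10:87858265-87937042) was near the floor of detection. Its normalised counts were 0, 2.12 and 0.652 in the control pools and 0.0828, 0.899 and 0.673 in the DEX pools. They were 2.09, 0.765 and 3.45 at 1 week and 2.31, 4.16 and 2.44 at 4 weeks. The 4 weeks pools lay above every control and DEX pool, whereas the 1 week pools overlapped both groups, and no pool held more than 38 reads. The log2 fold change was 2.51 at 4 weeks against DEX (95% CI 0.43 to 4.59, adjusted p = 0.353 by limma) and 2.43 at 4 weeks against control (adjusted p = 0.731), so neither passed the test. The difference from control was 1.197 without control pool 1 and 3.43 without control pool 2. DEX against control gave -0.08 (95% CI -2.16 to 1.997), an interval wide enough to hold large changes in either direction, and 0.14 without control pool 3.

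The receptor *Igf1r* (chr7:67952827-68233668) had the largest F test p of the 9. Normalised counts were 17.8, 20.97 and 50.0 in the control pools, and 25.4, 28.6 and 10.4 in the DEX pools. They were 16.3, 14.8 and 91.3 at 1 week and 28.8, 22.8 and 22.9 at 4 weeks. Every pair of groups overlapped, and the widest spread was within the 1 week group, where pool 3 stood far above the others. The adjusted p of the F test was 0.978 by limma. The log2 fold change was -0.43 for DEX against control (95% CI -1.68 to 0.82) and 0.33 for 4 weeks against DEX (95% CI -0.92 to 1.57). The DEX value was 0.03 without control pool 3, so that its sign rested on that pool. With 1 week pool 3 left out as well, the difference from control was -0.32 at 1 week and 0.35 at 4 weeks, each with no overlap (adjusted p = 0.865 and 0.830 by limma).

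Of the classical binding proteins, *Igfbp2* (chr1:72824503-72852474), which binds IGF2 more tightly than IGF1, was higher in each 4 weeks pool than in any DEX or 1 week pool. Its normalised counts were 1.26, 0.825 and 6.96 in the control pools and 1.41, 1.06 and 1.91 in the DEX pools. They were 4.37, 0.637 and 3.78 at 1 week and 6.56, 9.30 and 10.7 at 4 weeks. Control pool 3 alone reached into the 4 weeks range. The log2 fold change of 4 weeks against DEX was 2.53 (SE 0.75, 95% CI 0.93 to 4.13, adjusted p = 0.157 by limma), and that against control was 2.09 (adjusted p = 0.678). Control pool 3 and 1 week pool 3 are not in the comparison with DEX, and without them its difference stayed at 2.53. Only its SE fell, to 0.59, with an adjusted p of 0.0420 by limma, where 537 of 23282 genes passed (216 of 24736 with all pools). The difference from control was then 2.97 (adjusted p = 0.149 by limma). DEX against control was -0.44 with all pools and 0.44 without control pool 3.

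*Igfbp3* (chr11:7206086-7213923), the main carrier of IGF1 in plasma, was the only one of the 9 genes whose DEX pools all lay above the control pools. Its normalised counts were 4.56, 4.01 and 12.2 in the control pools and 15.6, 16.4 and 15.6 in the DEX pools. They were 5.80, 5.74 and 31.0 at 1 week and 18.5, 35.5 and 19.7 at 4 weeks. The DEX pools were close together and the 4 weeks pools lay above them, whereas at 1 week a pair of pools lay near control and pool 3 far above. The log2 fold change of DEX against control was 1.37 (SE 0.56, 95% CI 0.18 to 2.56, adjusted p = 0.668 by limma) and that of 4 weeks against control was 1.93 (95% CI 0.74 to 3.12, adjusted p = 0.540). Control pool 3 and 1 week pool 3 held the highest *Igfbp3* values of their groups and were picked after seeing them. Without them the log2 fold change against control was 1.87 for DEX and 2.43 for 4 weeks. The adjusted p by limma was then 0.0369 and 0.0271, where 39 and 3 of all 23282 genes passed. The larger differences and smaller p follow in part from this choice of pools. Leaving out 1 week pool 3 alone put *Igfbp3* past the F test (adjusted p = 0.0387 by limma, against 0.391 with all pools).

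*Igfbp4* (chr11:99041244-99054392), which mostly restrains IGF action until it is cut by the protease PAPPA, had normalised counts of 1.73, 6.95 and 9.79 in the control pools and 0.745, 6.21 and 5.27 in the DEX pools. They were 7.13, 6.76 and 9.89 at 1 week and 8.59, 14.1 and 11.9 at 4 weeks. Both recovery groups lay above all DEX pools, and both overlapped control. Against DEX the log2 fold change was 1.37 at 1 week (adjusted p = 0.504 by limma) and 1.90 at 4 weeks (95% CI 0.43 to 3.37, adjusted p = 0.298). Against control it was 1.18 at 4 weeks with all pools and 1.67 without control pool 3 and 1 week pool 3 (adjusted p = 0.840 and 0.523 by limma).

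*Igfbp5* (chr1:72857932-72874884), a binding protein that also holds to extracellular matrix, was the most abundant of the 9. The control pools had 83.7, 82.7 and 231.8 normalised counts and the DEX pools 104.0, 139.7 and 145.2. The values were 85.5, 152.2 and 206.3 at 1 week and 198.6, 196.3 and 145.2 at 4 weeks. All pairs of groups overlapped, and the largest fitted difference, 4 weeks against control, was a log2 fold change of 0.61 (95% CI -0.21 to 1.42, adjusted p = 0.855 by limma). Without control pool 3 and 1 week pool 3, the DEX, 1 week and 4 weeks pools all lay above the control pools. Against control the log2 fold change was then 0.62 in DEX (0.13 with all pools), 0.45 at 1 week (0.25) and 1.10 at 4 weeks (adjusted p = 0.659, 0.773 and 0.178 by limma). *Igfbp5* lies tail to tail with *Igfbp2*, 5457 bases away on the other strand, and the 2 genes had a Pearson correlation of 0.548 over the 12 libraries.

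*Igfbp6* (chr15:102144362-102149511), which prefers IGF2, rested on few reads. Normalised counts of *Igfbp6* were 0, 0 and 0.109 in the control pools and 0, 0.491 and 0.224 in the DEX pools. They were 0.285, 0.765 and 1.22 at 1 week and 1.94, 0.766 and 2.17 at 4 weeks. Both recovery groups lay above all control pools, and the 4 weeks pools lay above all DEX pools. With the control group set at a floor of 3 reads per library, the mean was at least 2.48-fold higher at 1 week and at least 5.32-fold higher at 4 weeks, and no such bound could be given for DEX. The limma test passed neither, with adjusted p = 1 at 1 week and adjusted p = 0.394 at 4 weeks, and the adjusted p of the F test was 0.121. The adjusted p without control pool 3 and 1 week pool 3 was 0.129 at 4 weeks against control and 0.0875 for the F test.

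Among the relatives, *Igfbp7* (chr5:77349240-77408041), a secreted protein known from vessel walls, showed the widest range. *Igfbp7* had normalised counts of 0.787, 3.77 and 22.7 in the control pools and 2.57, 1.96 and 1.12 in the DEX pools. They were 4.66, 0.765 and 20.6 at 1 week and 19.1, 20.03 and 21.4 at 4 weeks. The 4 weeks pools were close together and above all DEX pools, and control pool 3 and 1 week pool 3 reached the same range while the other pools of their groups did not. The log2 fold change of 4 weeks against DEX was 3.42 (SE 1.03, 95% CI 1.24 to 5.61, adjusted p = 0.161 by limma). Those 2 pools are not in this comparison, so leaving them out kept it at 3.42 and lowered only its SE, to 0.637. The adjusted p was then 0.0141 by limma, where 537 of 23282 genes passed (216 of 24736 with all pools). DEX against control gave -1.18 with all pools and 0.03 without control pool 3, so that its direction rested on that pool.

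*Igfbpl1* (chr4:45809468-45826923), a relative described in the developing brain, was seen almost only at 1 week. Its normalised counts were 0.236, 0 and 0.109 in the control pools and 0 in each DEX pool. They were 1.14, 2.17 and 0.667 at 1 week and 0, 0.109 and 0 at 4 weeks. The 1 week pools held 12, 17 and 6 reads and lay above all 9 other pools, of which none held more than 3. With a floor of 3 reads per library, the mean at 1 week was at least 4.79-fold higher than DEX, at least 4.34-fold higher than control and at least 4.54-fold higher than 4 weeks. It rose at 1 week against DEX by limma (adjusted p = 0.0189) and passed the F test over the 4 groups (adjusted p = 0.0494), while 1 week against control had adjusted p = 1 and 4 weeks against 1 week 0.533. edgeR's quasi-likelihood test did not call it. The F test called it in 2 of the 12 fits that left out 1 library, those without control pool 1 and without 1 week pool 3, with adjusted p from 0.0387 to 0.225 over the 12. The 1 week against DEX difference was called in 8 of those 12, and was lost without any 1 of the 3 DEX pools and without 1 week pool 2.

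Set side by side per kb of exon, *Igfbp5* had the highest mean in every group, with mean normalised counts per kb of 22.1 ± 14.3 in control and 29.97 ± 5.03 at 4 weeks (SD, n = 3). *Igfbp7* followed in control at 7.52 ± 9.84, then *Igfbp3* at 2.21 ± 1.46, *Igf1r* at 1.76 ± 1.06, *Igfbp2* at 1.63 ± 1.85 and *Igfbp4* at 1.39 ± 0.925 (SD, n = 3), and the ranges of these 5 over the control pools overlapped. The *Igfbp7* mean rested on control pool 3, without which it was 1.88. Within single pools *Igfbp5* was above *Igfbp7* in 12 of 12, whereas *Igfbp7* was below *Igfbp3* in 5 of 12. *Igf1*, *Igfbpl1* and *Igfbp6* were lowest, at 0.0933, 0.0354 and 0.0326 in control. At 4 weeks *Igfbp7* stood at 16.7 ± 0.941, above every pool of the genes below it in the order, and in DEX it fell behind *Igfbp3*, at 1.56 ± 0.601 against 5.07 ± 0.158 (SD, n = 3).

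**Figure D2:**
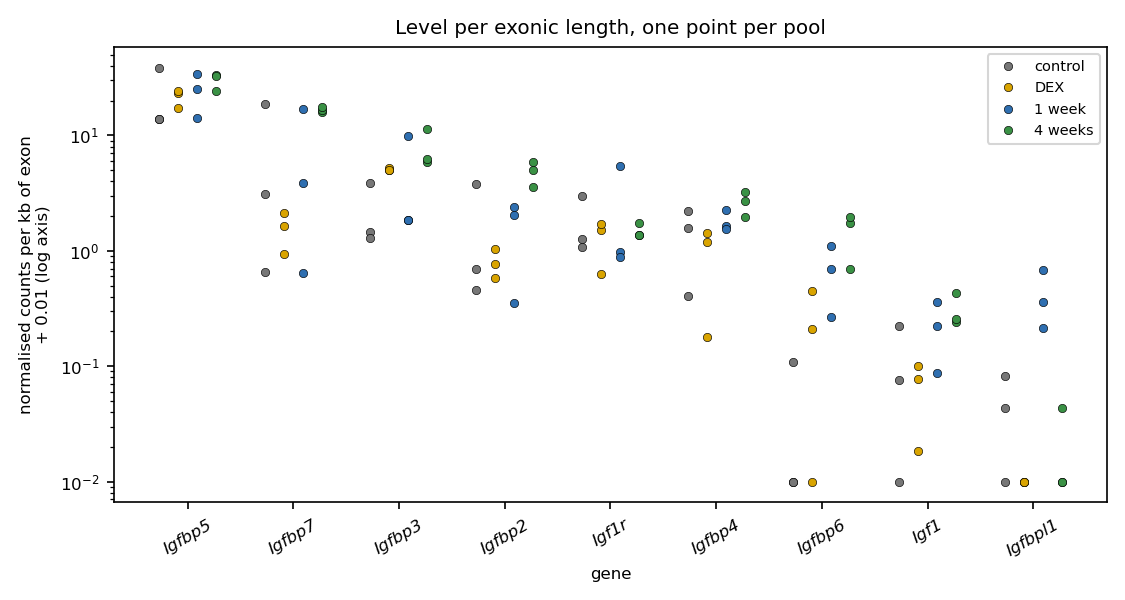
Level of each gene per kb of exon (log axis, 0.01 added) with 1 point per pool, coloured by group. *Igfbp5* has the highest mean in every group, and *Igf1*, *Igfbp6* and *Igfbpl1* lie at the bottom, with pools at 0 on the lowest line.

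Read by comparison, DEX against control called 0 of the 9 genes by limma, where 0.121% of all genes were called, and 1 at an unadjusted p under 0.05, where 6.8% of all genes lay. edgeR's quasi-likelihood test called 0 of the 9 and 0.17% of all genes, its likelihood ratio test 1 and 1.1%, and DESeq2 0 and 0.977%. The pools did not overlap for 1 gene, *Igfbp3*, against 12.8% of all genes. The median log2 fold change was -0.43 over the 9 and -0.02 over all genes tested, and 3 of the 9 were above 0. Without control pool 3 and 1 week pool 3 the median of the 9 was 0.14 and 7 of the 9 were above 0, so this summary rested on control pool 3.

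At 1 week against control limma called 0 of the 9 genes, as it called 0% of all genes, with 2 of the 9 at an unadjusted p under 0.05, where 3.79% of all genes lay. Both edgeR tests and DESeq2 called 0 of the 9, while over all genes edgeR's quasi-likelihood test called 0.00404%, its likelihood ratio test 0.202% and DESeq2 0.0324%. The pools of 2 genes, *Igfbp6* and *Igfbpl1*, did not overlap and were higher, against 6.08% of all genes. At 4 weeks against control limma again called 0 of the 9 and 0% of all genes, with 5 of the 9 at an unadjusted p under 0.05, where 6.35% of all genes lay. edgeR's quasi-likelihood test called 0 of the 9 and 0% of all genes, its likelihood ratio test 2 and 0.364%, and DESeq2 0 and 0.342%. Here 3 of the 9 did not overlap, *Igf1*, *Igfbp3* and *Igfbp6*, each higher, against 13.2% of all genes. Without control pool 3 this was 8 of 9, against 27.9% of all genes with the same pools. Control pool 3 was picked partly on values of these genes, so this rise follows in part from the choice. Without control pool 1 or control pool 2 the count was 3 of 9 each time (21.4% and 22.5% of all genes). The median log2 fold change of the 9 genes was 0.65 at 1 week and 1.93 at 4 weeks against control.

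Against DEX, limma called 1 of the 9 genes at 1 week, *Igfbpl1*, where 0.433% of all genes were called, with 1 of the 9 at an unadjusted p under 0.05, where 10.8% of all genes lay. edgeR's quasi-likelihood test called 0 of the 9 and 136 of all genes. Its likelihood ratio test called *Igfbpl1* and another of the 9, among 704 of all genes, and DESeq2 called *Igfbpl1*, among 573. The pools of *Igfbp4* and *Igfbpl1* did not overlap at 1 week, against 13.8% of all genes. At 4 weeks limma called 0 of the 9, where 0.873% of all genes were called, with 5 of the 9 at an unadjusted p under 0.05, where 9.94% of all genes lay. edgeR's quasi-likelihood test called 0 of the 9 and 0.865% of all genes, its likelihood ratio test 3 and 2.64%, and DESeq2 1 and 3.21%. The pools did not overlap for 6 of the 9 genes, *Igf1*, *Igfbp2*, *Igfbp3*, *Igfbp4*, *Igfbp6* and *Igfbp7*, all higher at 4 weeks, against 19.5% of all genes in either direction. The median log2 fold change over the 9 was 1.90, and 0.00 over all genes tested. Because the comparisons share the DEX or the control pools, these counts are not independent of each other.

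Between the recovery groups, limma called 0 of the 9 genes at 4 weeks against 1 week, as it called 0% of all genes, with 4 of the 9 at an unadjusted p under 0.05, where 5.47% of all genes lay. Both edgeR tests and DESeq2 called 0 of the 9, while over all genes edgeR's quasi-likelihood test called 0%, its likelihood ratio test 0.651% and DESeq2 0.0932%. *Igfbp2* was higher and *Igfbpl1* lower at 4 weeks with no overlap, 2 of the 9 against 8.92% of all genes. Without 1 week pool 3 this was 8 of 9, against 20.3% of all genes with the same pools. Of these 8, *Igfbp6* was parted by 7 reads (0.766 normalised counts) against 6 reads (0.765). 1 week pool 3 was picked partly on values of these genes, so the rise to 8 follows in part from the choice. Without 1 week pool 1 or 1 week pool 2 the count was 2 of 9 each time (19.6% and 21.9% of all genes). With 3 pools against 3, a two-sided exact permutation test of a single gene cannot go below 0.1, the value that each gene without overlap reached.

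**Figure D3:**
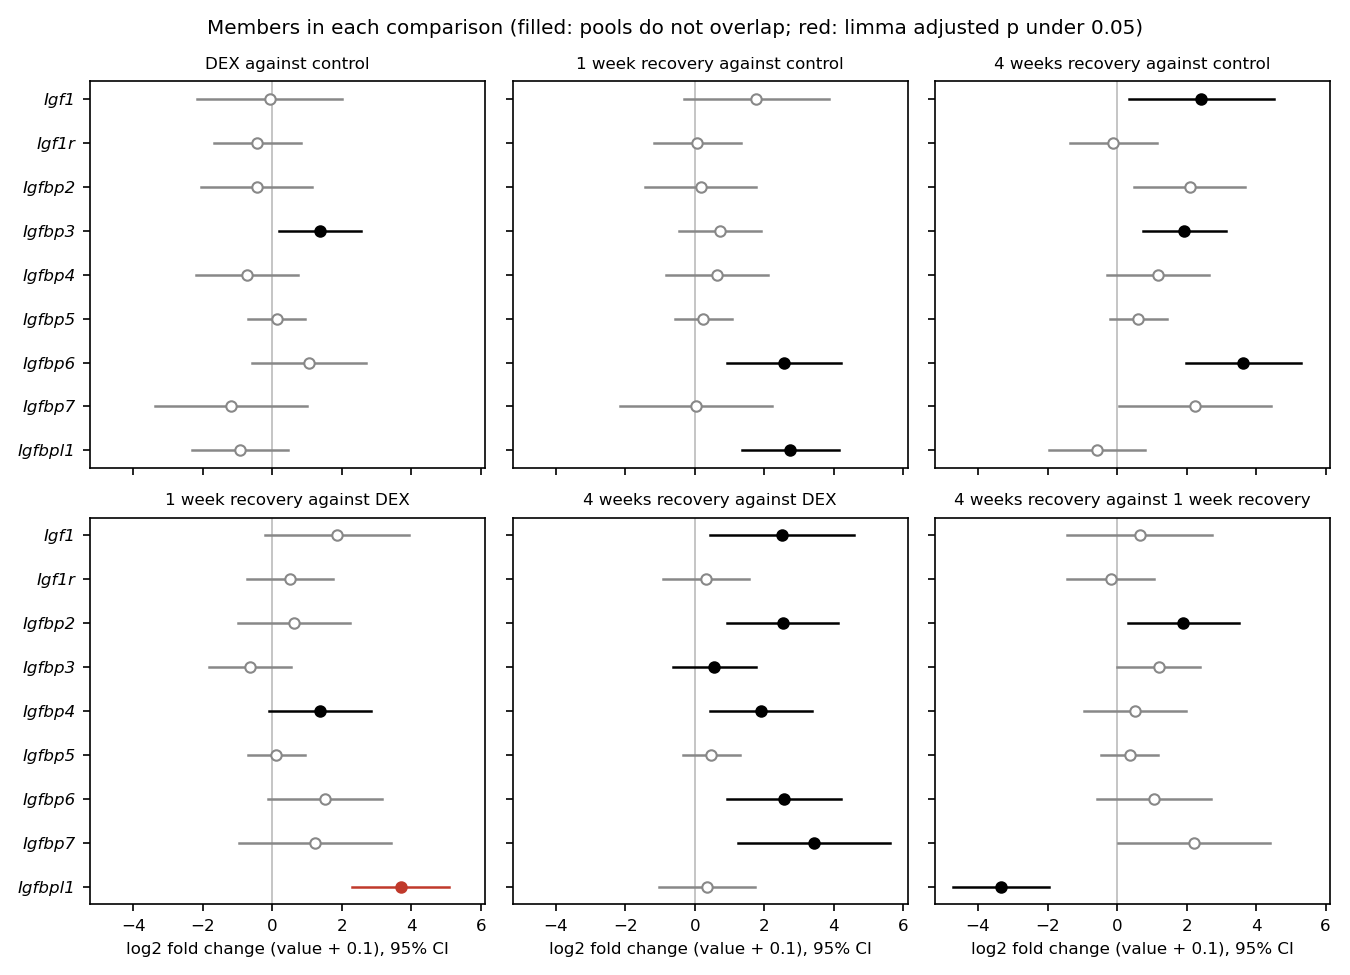
Log2 fold change with its 95% confidence interval for the 9 genes in the 6 comparisons, on the log2(value + 0.1) scale. Filled points mark pools that do not overlap, red marks the only call by limma, *Igfbpl1* at 1 week against DEX, and 6 filled points lie to the right of 0 at 4 weeks against DEX.

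Markers of other cell types in the sort also differed between the groups. The sum of 12 endothelial markers was 11.3 to 86.5 normalised counts in the control pools, 7.79 to 14.2 in DEX, 35.4 to 224.6 at 1 week and 95.1 to 181.8 at 4 weeks, with the highest control and 1 week values in pool 3 of each. All 12 endothelial markers had a log2 fold change below 0 in DEX against control and above 0 at 4 weeks against DEX, where 6 of the 12 passed the test. The sum of 12 fibroblast and pericyte markers was 100.8 to 160.3 in control, 79.6 to 123.6 in DEX, 92.1 to 234.1 at 1 week and 192.5 to 307.8 at 4 weeks, and 2 of the 12 rose at 4 weeks against DEX. No marker of either list was at 0 in all pools of a group. Within groups the endothelial sum and these genes ordered the pools alike in some cases and not in others. Over control pools 1 to 3 the sum was 11.3, 47.9 and 86.5, and *Igfbp7* was 0.787, 3.77 and 22.7. At 1 week both were highest in pool 3. *Igfbp2* was highest at 1 week in pool 1 (4.37), which had the lowest endothelial sum. At 4 weeks pool 3 had the lowest endothelial sum and the highest *Igfbp2* (10.7). *Igfbp7* was also highest there, at 21.4, with 19.1 and 20.03 in pools 1 and 2. The part of these cells in the 4 weeks values of *Igf1*, *Igfbp2*, *Igfbp4*, *Igfbp6* and *Igfbp7* was not tested.

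The median endothelial sum was 11.9 in DEX and 47.9 in control, and the part of endothelial cells in the *Igfbp3* values was not tested. The sum of 8 stem and folliculostellate markers was 414.3 to 432.7 in the DEX pools, 173.0 to 423.8 in control, 218.1 to 356.0 at 1 week and 459.1 to 594.2 at 4 weeks, with control pool 3 again the highest of its group. None of those 8 markers passed a limma test in any comparison, and their part in the *Igfbp3* values was not tested. The sum of 11 macrophage markers was 31.1 to 46.9 in control, 26.6 to 38.8 in DEX, 53.0 to 93.3 at 1 week and 43.7 to 100.05 at 4 weeks, and that of 3 thyrotroph markers was 462.4 to 727.8 at 4 weeks against 50.7 to 262.9 in DEX. The sum of 4 somatotroph markers, which *Gh* dominates, was 79031 to 221430 in control, 67730 to 104390 in DEX, 91950 to 221000 at 1 week and 150503 to 266098 at 4 weeks, with control pool 3 the highest of its group, and 1 of the 4 rose at 4 weeks against DEX. The part of somatotrophs in the values of the 9 genes was not tested.

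**Figure D4:**
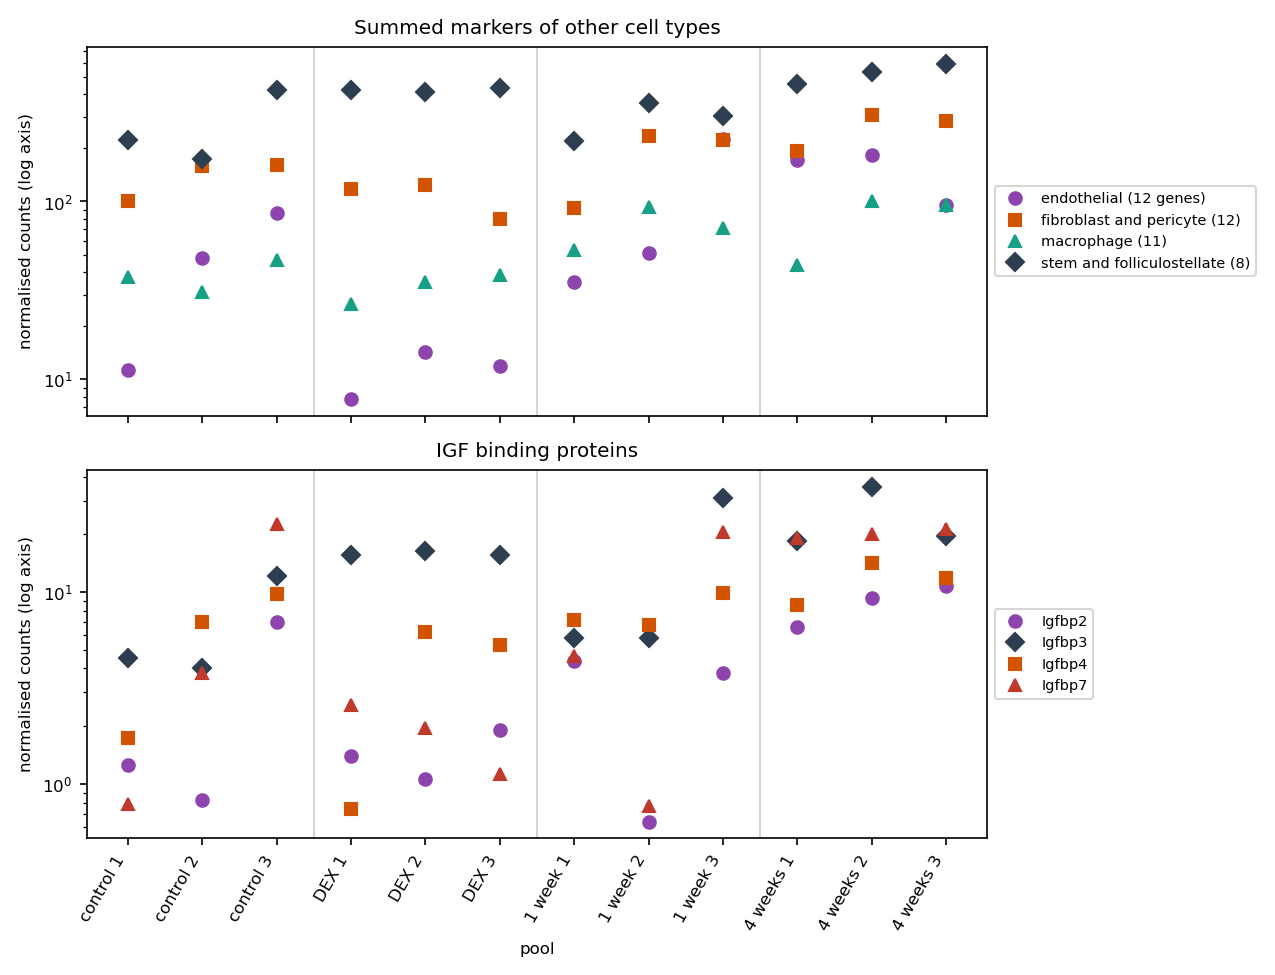
Summed normalised counts of 4 marker lists (top) and of *Igfbp2*, *Igfbp3*, *Igfbp4* and *Igfbp7* (bottom) in each of the 12 pools, both on log axes. *Igfbp7* and the endothelial sum are both high in control pool 3, 1 week pool 3 and the 4 weeks pools. In the DEX pools *Igfbp3* lies above its control pools and the endothelial sum is 7.79 to 14.2. The part of other cells in these values was not tested.

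Around the 9 genes, 60 of 64 genes of the wider IGF and insulin pathway passed the filter. The 4 that did not were *Ins1*, *Ins2*, *Ghrh* and *Igfbp1*, a binding protein made by the liver, which had 0.708 normalised counts in control pool 1 and no more than 0.0924 in any other pool. *Igf2* reached at most 0.445. Limma's F test took 1 of the 60, *Esm1*, and 0.315% of all genes. Of the 60, 1 fell in DEX against control (0.121% of all genes called) and 2 fell at 1 week against DEX (0.433%). At 4 weeks against DEX 1 rose and 2 fell (0.873%). The 3 remaining comparisons called 0 by limma, as they called 0% of all genes. At an unadjusted p under 0.05 they took 3 of the 60 for 1 week against control (3.79% of all genes). They took 8 for 4 weeks against control (6.35%) and 5 for 4 weeks against 1 week (5.47%).

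*Esm1*, or endocan, which holds the same N-terminal domain and is a product of endothelial cells, had normalised counts of 36.8, 51.4 and 24.1 in the control pools and 3.81, 4.66 and 1.79 in the DEX pools. They were 58.6, 14.5 and 6.78 at 1 week and 37.0, 20.1 and 25.0 at 4 weeks. It fell by 3.45 on the log2 scale in DEX against control (adjusted p = 0.0302 by limma) and rose by 3.02 at 4 weeks against DEX (adjusted p = 0.0264). The endothelial sums given above had their lowest median in DEX. Of the 1 week pools, pool 3 had the highest endothelial sum and the lowest *Esm1* value. The part of endothelial cells in the *Esm1* values was not tested.

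Below the receptor, *Pik3ip1*, an inhibitor of PI3K, had normalised counts of 28.0, 16.3 and 20.7 in the control pools and 67.8, 47.4 and 126.2 in the DEX pools. They were 23.5, 20.9 and 12.7 at 1 week and 16.4, 21.6 and 29.96 at 4 weeks. It fell against DEX by 2.003 on the log2 scale at 1 week (adjusted p = 0.0220 by limma) and by 1.75 at 4 weeks (adjusted p = 0.0384). *Rptor*, the scaffold of mTOR complex 1, stood at 57.1 to 101.7 in the DEX pools, 42.6 to 60.5 in control, 27.7 to 35.0 at 1 week and 25.4 to 34.4 at 4 weeks. It fell against DEX by 1.27 at both times, with an adjusted p of 0.0487 at 1 week and 0.0358 at 4 weeks by limma. Both genes are among those the study picked from these same libraries, so their direction is not independent evidence.

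The other pathway genes with the smallest p did not pass the test. *Mtor* itself had a log2 fold change of 0.93 in DEX against control (adjusted p = 0.486 by limma) and *Stat5a*, which carries growth hormone signals, one of 0.97 (adjusted p = 0.266), both with DEX pools above all control pools. *Irs2*, a docking protein of the receptor, had 576.8 normalised counts on average in DEX and 246.8 at 1 week, a log2 fold change of -1.18 (adjusted p = 0.133 by limma). *Pappa2*, a protease that cuts IGFBP3 and IGFBP5, had 0.75 in DEX against control (adjusted p = 0.660) and is also a somatotroph marker here. *Insr*, the insulin receptor, and *Igf2r*, which clears IGF2, had DEX against control log2 fold changes of 0.03 and 0.30.

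Genes most like each of the 9 were sought among 15756 genes by Pearson correlation over the 12 libraries, as a description, since the libraries share groups. *Igfbp7* was most like *Creb3l1* (r = 0.954) and *Zcchc24* (r = 0.945), and *Igfbp2* most like *Pmp22* (r = 0.901), a membrane protein of myelin, and the Wnt receptor *Fzd7* (r = 0.894). *Igf1* was most like *Ak8* (r = 0.919). *Igf1r* was most like *Kmt2a* (r = 0.965), *Dyrk1a* (r = 0.957) and *Pik3ca* (r = 0.954), the last the catalytic subunit of PI3K. *Igfbp3* was most like *Gm45767* (r = 0.918) and *Cdo1* (r = 0.914), and *Igfbp5* most like *Degs2* (r = 0.945) and *Lims2* (r = 0.932). *Igfbpl1* was most like *Ccnb1* (r = 0.920), the cyclin of mitosis, and *Igfbp6* most like *Thsd4* (r = 0.899), with both genes at few reads. *Igfbp4* was most like *Ttyh2* (r = 0.953). Among the 9 themselves the closest pairs were *Igf1* with *Igfbp4* (r = 0.876), *Igfbp2* with *Igfbp7* (r = 0.871) and *Igfbp3* with *Igfbp5* (r = 0.736).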

How the data were processed

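RNA-seq of 12 libraries in 4 groups of 3 pools was used. The authors trimmed reads with Trim Galore 0.6.5, aligned them to GRCm38 with STAR 2.7.1a and counted read pairs per gene with featureCounts 2.0.0 in stranded mode. The deposited values are a normalised signal, the CPM of the library size after the authors' TMM scaling in edgeR, called normalised counts here. Whole reads were recovered for 100% of the 271881 values above 0, within 0.01 of a whole read. RNA was amplified with SMART-V4 from amounts under the detection limit of the fluorometer, and floors of 3 reads cover counting error only. The design had taken the values for plain CPM, and its limma test was kept.

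Groups and pool numbers came from the labels. R 4.3.3 was used with limma 3.58.1 (lmFit, eBayes with trend) on log2(value + 0.1). A gene needed a value above 0.1 in 3 or more libraries, which 24736 met, and all 12 libraries entered 1 model without covariates, with Benjamini-Hochberg adjustment over all genes. A fold change on this scale understates that of low genes. Single genes were compared with two-sided exact permutation tests. edgeR 4.0.16 and DESeq2 1.42.0 on the recovered reads, pseudocounts of 0.5 and 1, no filter, a filter above 1, median ratio scaling, array weights, models of 2 groups, a replicate block and each library left out were alternatives. The tests were tried on simulated counts. The 9 genes, the 8 pathway lists and the 10 marker lists were chosen with earlier results of these data known. Pathway genes named in the text passed a test or were among the 8 next by F test p, apart from ligands, receptors and *Igfbp1*, named for their role, and the likeness genes had a mean of at least 1. Some genes that these rules name are not reported here. Coordinates and exon lengths are of GENCODE M21 on GRCm38, a different annotation release from the authors'.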

Additional observations from a re-analysis of the deposited data

How the results depend on the processing

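Over the 4 groups, limma called 1 of the 9 genes. It called 0 with no filter, 0 with a filter above 1, which leaves *Igfbpl1* untested, 5 with array weights and 0 to 2 with 1 library left out; edgeR's quasi-likelihood test called 0, its likelihood ratio test 5 and DESeq2 2. Leaving out both control pool 3 and 1 week pool 3, chosen after seeing the data, gave 3. With the replicate number as a block it called 0. The values do not settle whether the numbers pair the pools. Deviations of same-numbered pools correlated from -0.294 to 0.397, over 0.1 in 7 of 18 pairs, while 8 of 12 libraries correlated best with their own number. Array weights, the likelihood ratio test and leaving out both pools gave 1, 1 and 1 in DEX against control (0 with all pools), 3, 2 and 1 at 4 weeks against control (0) and 2, 3 and 2 at 4 weeks against DEX (0), where models of 2 groups and DESeq2 gave 1 each. Over all genes these settings gave 166, 273 and 39 in DEX against control (30 in the main fit of 24736 genes) and 186, 90 and 3 at 4 weeks against control (0). At 4 weeks against DEX they gave 1300, 652 and 537 (216), with 21 by models of 2 groups and 655 by DESeq2. At 1 week against DEX (1), a filter above 1, models of 2 groups and the quasi-likelihood test gave 0, the likelihood ratio test 2, and leaving out 1 library 0 to 1. Over all genes, in the same order, these gave 112, 0, 136, 704 and 7 to 201 (107 in the main fit).

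Genes whose pools do not overlap are given here beside the share of all genes with the same pools. With 1 library of the comparison left out they numbered 1 to 3 in DEX against control (19.4% to 24.2% of all genes), 2 to 4 at 1 week against control (11.1% to 17.3%), 3 to 8 at 4 weeks against control (18.4% to 27.9%), 2 to 5 at 1 week against DEX (18.4% to 26.4%) and 2 to 8 at 4 weeks against 1 week (14% to 21.9%). Without both pools they numbered 2 in DEX against control (22.1%), 5 at 1 week against control (30.8%), 8 at 4 weeks against control (27.9%) and 8 at 4 weeks against 1 week (20.3%). Both pools were picked partly on values of these genes, so these counts are not independent support. *Igfbp7* in DEX against control ranged from -2.32 to 0.03, turning to 0.0267 without control pool 3 and 0.0267 without both pools; the value of that pool sets the sign. Over all genes the F test called 78, and 1069 with array weights, 158 by the quasi-likelihood test, 1031 by the likelihood ratio test, 734 by DESeq2 and 259 without both pools, so the choice of test moves the counts more than any pseudocount (91 and 92). *Igf1*, *Igfbp6* and *Igfbpl1* rest on at most 38, 24 and 17 reads per library, which limits what can be said of them.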
